A study of Mus musculus with 8 samples.

Results

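The nuclear genes of oxidative phosphorylation were followed in mouse liver after furan, by respiratory complex. Genes were taken by symbol: those whose name starts with Nduf (complex I and its assembly factors), Uqcr (complex III) or Atp5 (complex V), the complex II genes Sdha, Sdhb, Sdhc and Sdhd, the cytochrome c1 gene Cyc1, and the Cox4 to Cox8 subunits of complex IV. The array held 94 such genes, and 92 were measured, among 24924 genes or transcripts tested. Each was read from its brightest probe among those that the scanner software called well above background on 4 or more of the 8 arrays. Cox7b2 was above background on 0 arrays and Cox8c on 1, and neither is described further. The 92 genes comprised 7 core and 29 accessory subunits of complex I, 8 complex I assembly factors, 4 subunits of complex II, 9 of complex III, 16 of complex IV, 17 of complex V and 2 further proteins, Ndufa4l2 and Cox7a2l. All are encoded in the nucleus. The genes of the mitochondrial genome, which supply the remaining core subunits, are outside this name rule and were not used here.

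Liver RNA came from 8 female mice of the B6C3F1 hybrid strain, bought at 5 to 6 weeks of age and kept at least 7 days before dosing. The vehicle group, 4 mice with replicates numbered 2, 3, 4 and 6, was given corn oil by gavage for 21 days. The furan group, 4 mice numbered 41 to 44, was given furan in corn oil at 8 mg per kg body weight on the same schedule. Livers of both groups were removed 4 hours after the final gavage and snap frozen, so both groups share the gavage, the oil and the interval. Furan is a small volatile compound that forms when food is heated and that injures rodent liver.

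Oxidative phosphorylation takes electrons from NADH at complex I and from succinate at complex II, passes them through ubiquinone to complex III, through cytochrome c to complex IV and finally to oxygen. The protons pumped on the way drive complex V, the ATP synthase. Hepatocytes are rich in mitochondria and use this pathway to pay for gluconeogenesis, the urea cycle and the synthesis of plasma proteins.

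Levels are log2 fluorescence signals relative to the 75th percentile of the same array, and a change is the furan mean minus the vehicle mean on that scale. Brightness differs between probes for reasons other than RNA amount, so the levels of different genes are not compared. Precision is limited by the number of arrays, 4 per group. The labels call the samples of a group biological replicates, and p-values measure the spread between these animals. Probe spots well above background made up 55.1% to 86.2% of an array, with the top value on vehicle replicate 2, which stood apart from the other 7. All 9 hepatocyte markers, among them Alb and Apoa1, were measured and 0 of them passed the test.

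Some promoters of these genes carry letters that are known binding motifs of NRF1, a transcription factor of nuclear respiratory genes (not the antioxidant factor NRF2). RefSeq promoter windows of assembly GRCm38.p6, from 250 bases before to 50 after each start, were given for 75 of the 92 genes, as 80 promoters. The NRF1 core GCGCATGCG stood in 12.5% of these promoters and in 1.8% of all 32851 promoters of the same length. With any base at its middle position (GCGCANGCG, which includes the first motif), the shares were 28.7% and 6.2%. Genes of oxidative phosphorylation also had more G and C in this window, with a median of 58.5% against 52.7%, and both motifs are rich in these bases. The windows below are stretches of 100 bases from the 5 genes in which the core matched on both strands before the start. They put the letters shared by these 5 genes side by side. The 10 bases covered by the overlapping matches are in capitals.
Atp5g2: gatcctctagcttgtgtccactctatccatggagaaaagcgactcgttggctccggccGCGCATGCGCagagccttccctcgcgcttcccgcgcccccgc
Atp5k: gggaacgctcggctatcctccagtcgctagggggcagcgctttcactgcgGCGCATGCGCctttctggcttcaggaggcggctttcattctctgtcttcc
Cox6a1: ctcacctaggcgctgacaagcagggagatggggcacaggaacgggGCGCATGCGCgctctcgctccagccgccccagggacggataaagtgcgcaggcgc
Ndufa11: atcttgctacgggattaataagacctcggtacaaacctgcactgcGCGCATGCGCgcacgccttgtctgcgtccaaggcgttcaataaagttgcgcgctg
Ndufaf4: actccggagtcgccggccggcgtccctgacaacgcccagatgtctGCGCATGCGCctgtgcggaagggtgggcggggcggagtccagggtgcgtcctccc
The windows lie at chr15:102671048-102671147 (minus strand, Atp5g2, a gene of the c ring of complex V), chr5:108434400-108434499 (minus strand, Atp5k, subunit e of complex V) and chr5:115349066-115349165 (minus strand, Cox6a1). The other two lie at chr17:56717657-56717756 (plus strand, Ndufa11) and chr4:24897925-24898024 (plus strand, Ndufaf4). The capitals began 42 bases before the start in Atp5g2, 50 in Atp5k, 60 in Ndufa11, 113 in Ndufaf4 and 162 in Cox6a1. Those 5 genes had log2 changes after furan of 0.02, 0.15, 0.06, 0.11 and 0.08, in the order Atp5g2, Atp5k, Ndufa11, Ndufaf4 and Cox6a1.

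Other letters were counted in the same windows. The ETS motif CCGGAAG, bound by GABP (NRF2 in the older respiratory literature), was in 23.8% of the members' promoters against 8.9% of all promoters. The YY1 motif AAGATGGCG was in 8 of the 80 promoters against 1.4% of all. Those 8 belonged to the complex I subunits Ndufa9, Ndufc1, Ndufs4, Ndufs6 and Ndufs7, the complex I assembly factor Ndufaf8 and the complex V genes Atp5j and Atp5j2. The GC box GGGCGGG was in 35.0% against 25.6% and the ERR motif TCAAGGTCA in 2.5% against 0.4%. The TATA box TATAAA was in 8 of the 80 promoters, against 13.6% of all. Both strands were searched for each of these motifs, and a match describes the letters and not a bound site. The NRF1 core with any middle base was present in 7 of the 15 complex V genes with a window and 8 of 27 accessory subunits of complex I. It was in 0 of 5 core subunits of complex I and 2 of 7 complex I assembly factors. For complex II it was in 2 of 3 genes, for complex III in 2 of 5 and for complex IV in 1 of 12, Cox6a1. The 22 genes with it had a median log2 change of 0.08, and the remaining genes with a window had 0.11.

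The comparison of furan with vehicle addressed the transcriptional response of the liver to 3 weeks of exposure. None of the 92 genes passed an adjusted p of 0.05 in limma with Benjamini-Hochberg adjustment over all features, a threshold that 4.18% of all features passed (2.86% higher and 1.31% lower). At an unadjusted p under 0.05, 4 were higher and 3 lower, 7 in all, where 23.8% of all features were. The median log2 change of the 92 genes was 0.08, against -0.09 for all features. Of the 92, 68 had a change above 0, a share of 73.9% against 39.8% of all features. Only Cox8b lay beyond 1.5-fold, where 16.7% of all features did, and that change was close to 0 under 3 other ways of processing, given with the gene below.

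With the 75th percentile of each array taken as the reference, the 95% intervals were narrow. For 87 of the 92 genes the whole interval lay within 1.5-fold in either direction, where it did so for 46.5% of all features. For 91 it lay within 2-fold, against 75.3%. These intervals do not include the choice of reference. With a median shift the median change of the 92 genes was 0.56, near the 1.5-fold line at 0.58, and without any shift it was 0.20. The array median used for that shift was 7.03 on vehicle replicate 2 and from 5.02 to 5.59 on the other arrays. The 5 genes whose interval reached past 1.5-fold were Ndufaf6, Atp5pb and Cox6b2 on the upper side and Cox7a1 and Cox8b on the lower. The median standard error of a change was 0.10 among the 92 genes and 0.15 over all features. In 84 of the 92 the probe was among the brightest 25% of features.

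**Figure D1:**
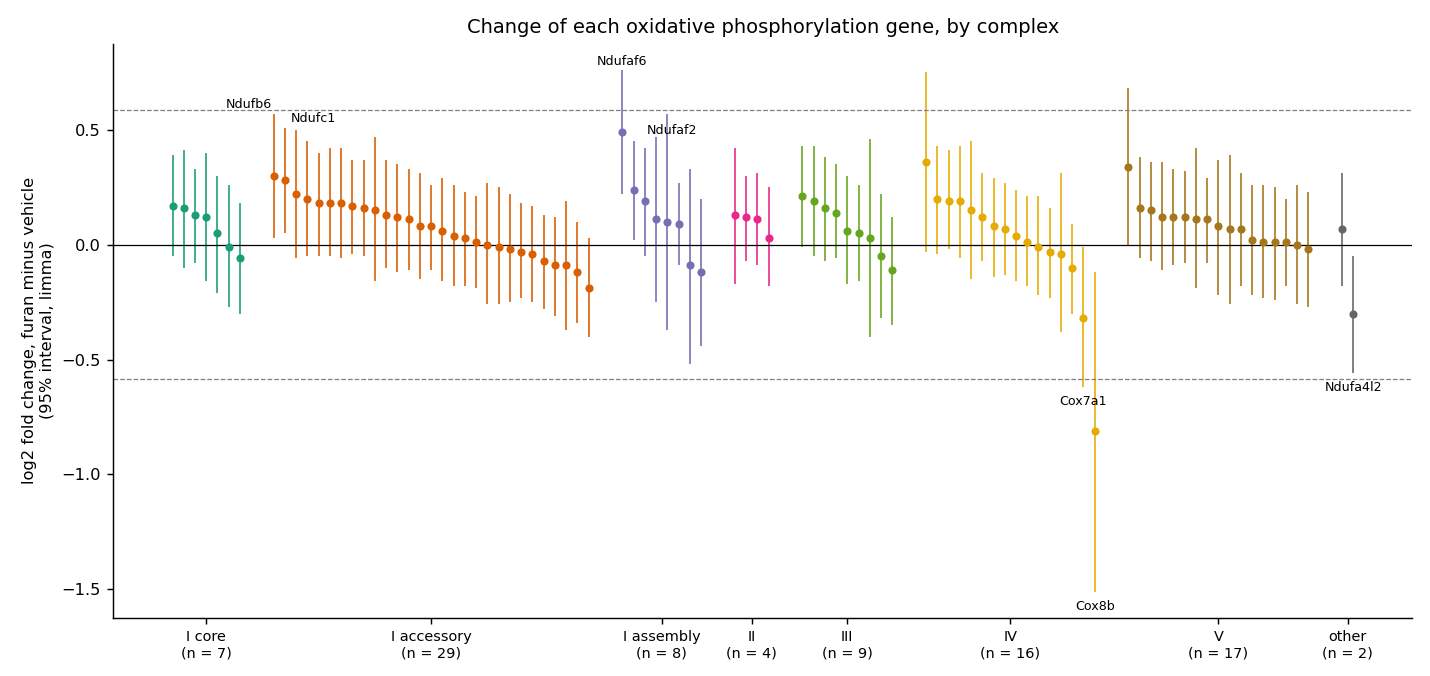
Log2 change of each of the 92 genes (points, furan minus vehicle, 4 arrays per group) with its 95% interval from limma (lines), ordered by size within each class; dashed lines mark 1.5-fold. Most points lie between -0.2 and 0.2 in every complex, and the genes with an unadjusted p under 0.05 are named.

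**Figure D2:**
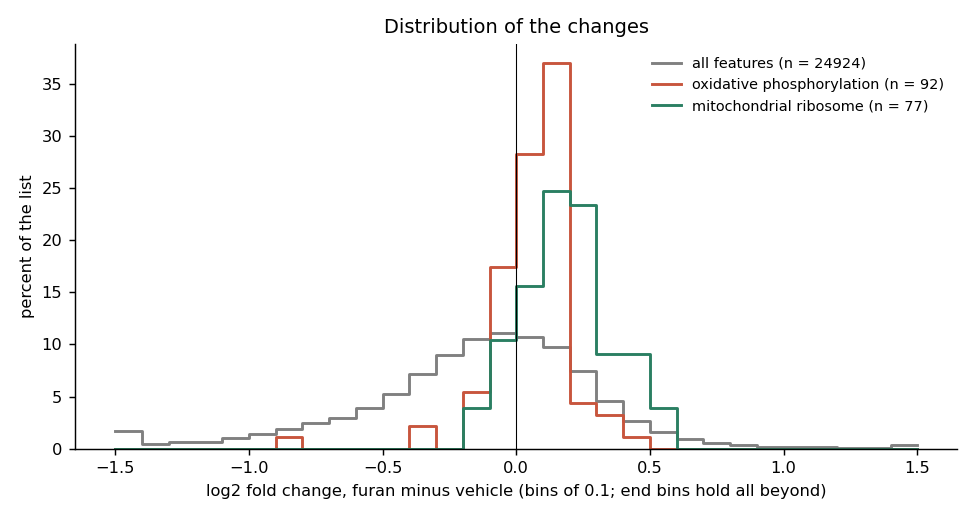
Share of each list, in percent, in bins of 0.1 of the log2 change (furan minus vehicle) for all 24924 features, the 92 oxidative phosphorylation genes and 77 genes of the mitochondrial ribosome. The oxidative phosphorylation genes pile up in the bins from 0 to 0.2, while all features spread wider around a median of -0.09.

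The median log2 change was 0.08 for the 36 subunits of complex I, 0.11 for complex II, 0.06 for complex III, 0.06 for complex IV and 0.08 for complex V, and 0.10 for the complex I assembly factors. Within a group, the median of a complex varied from array to array with an SD of 0.06 for complex II, 0.10 for complex IV, 0.11 for complexes I, III and V and 0.12 for the assembly factors. Much of this spread was shared between complexes, so each median was also set against that of complex I on the same array. Complex V minus complex I was 0.68 ± 0.04 in the vehicle group (SD, n = 4) and 0.62 ± 0.05 in the furan group, and complex III minus complex I was 0.67 ± 0.05 and 0.72 ± 0.05. The same difference moved by -0.04 for complex II, -0.04 for complex IV and 0.06 for the assembly factors, with SDs from 0.05 to 0.10. The vehicle and furan arrays overlapped in each of these differences, and no test was run between complexes.

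On the scale used here, the levels of these genes shifted together from array to array. The median level of complex I subunits was 6.34, 6.62, 6.37 and 6.51 on the arrays of vehicle replicates 2, 3, 4 and 6, and 6.69, 6.62, 6.64 and 6.52 on those of furan replicates 41 to 44. That of complex V was 7.02, 7.25, 7.07 and 7.22, then 7.34, 7.30, 7.21 and 7.11. Vehicle replicates 2 and 4 were low for both complexes, vehicle replicate 3 was as high as some furan arrays, and the groups overlapped. Over the 91 genes with a value on every array, 9 were above their own mean over the 8 arrays on vehicle replicate 2 and 11 on vehicle replicate 4, against 68 and 66 on vehicle replicates 3 and 6. On the furan arrays 73, 55, 75 and 24 were above it, the lowest being furan replicate 44. Shares over all features ran only from 43.3% to 55.3%. The SD of a gene within its group was 0.12 at the median, and 0.08 after the median of the 92 genes was subtracted from each array. That median came from these same genes, so some fall in their SD was built in. For all features the same subtraction took the SD from 0.22 to 0.24, but they include many dimmer probes and are not a matched comparison. The 75th percentile subtracted from each array varied too, at 8.85, 8.40, 8.76 and 8.52 on vehicle replicates 2, 3, 4 and 6. On furan replicates 41 to 44 it was 8.83, 8.60, 8.70 and 8.90. It was high on vehicle replicates 2 and 4 and furan replicate 44, where these genes were low, but also on furan replicate 41. Each animal had 1 array, so array scale and animal cannot be told apart. What this shared movement reflects was not tested. Because these are pieces of whole liver, fewer cells of a type and less RNA per cell cannot be told apart either.

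**Figure D3:**
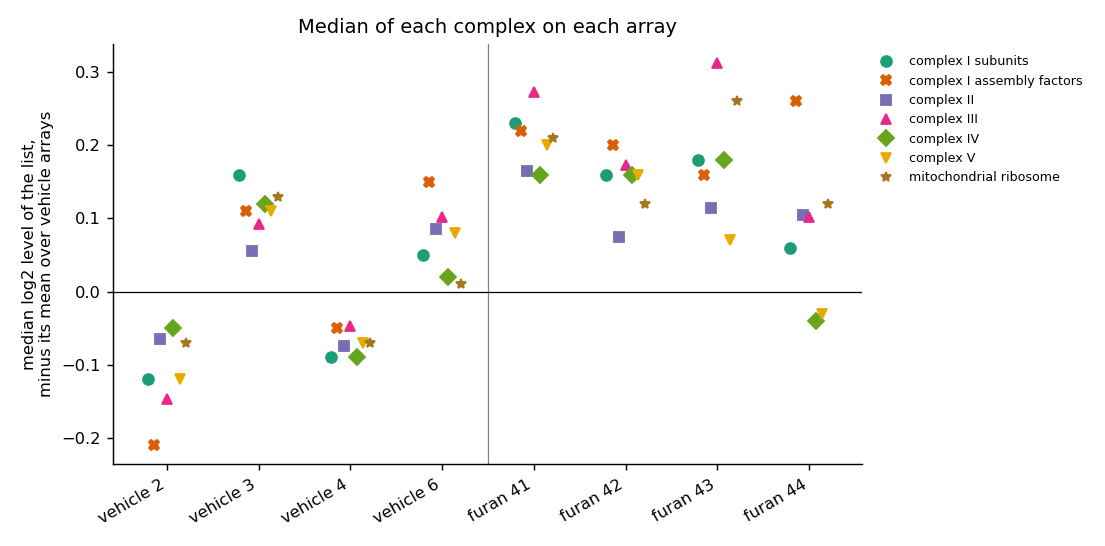
Median log2 level of each complex, and of the mitochondrial ribosome genes, on each of the 8 arrays, minus the mean of that median over the 4 vehicle arrays. The complexes shift together across arrays: vehicle replicates 2 and 4 lie below 0 for every list. On furan replicate 44, complexes I, IV and V and the mitochondrial ribosome lie among the vehicle arrays, and complex III is level with the highest of them. Ndufaf5, without a value on vehicle replicate 6, is left out of the assembly factors.

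The median of the 92 genes took its sign from the scaling. It was 0.08 with the 75th percentile of each array as the reference, where all features had -0.09, and -0.01 with the brightest 25% of features as the reference, where all features had -0.18. After quantile normalization the 92 genes had 0.02 and all features 0.05. In the authors' deposited log2 values the 92 genes had -0.03 and all features 0.01. With the median of each array as the reference both lay far above 0, at 0.56 and 0.39, and without any shift at 0.20 and 0.03. That reference stood apart on vehicle replicate 2, at 7.03 against 5.02 to 5.59 on the other arrays. The sign and size of this median, and the sign of any single change as small, therefore depended on the reference chosen.

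**Figure D4:**
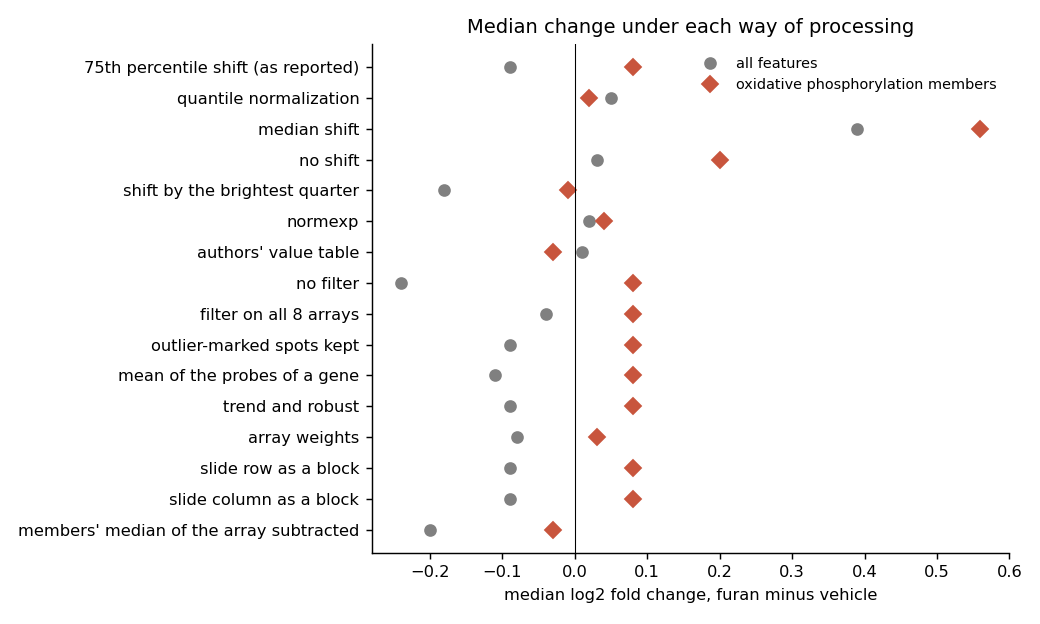
Median log2 change (furan minus vehicle) of the 92 oxidative phosphorylation genes (diamonds) and of all features (circles) under each way of processing that keeps all 8 arrays. The diamonds lie between -0.03 and 0.08 except with a median shift (0.56) or no shift (0.20).

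In complex I, the NADH dehydrogenase, the core subunits measured here hold the flavin and the iron-sulfur clusters that carry electrons to ubiquinone. Ndufs8, a carrier of 2 iron-sulfur clusters, had the highest change of the 7. It stood at 4.71, 4.93, 4.61 and 4.81 on the vehicle arrays and at 5.01, 4.88, 4.98 and 4.89 on the furan arrays. The change was 0.17 ± 0.09 (SE, adjusted p = 0.296 in limma). The groups overlapped, since vehicle replicate 3 was above 2 furan arrays. Ndufs7, which binds the last cluster before ubiquinone, had the lowest, -0.06 ± 0.11 (adjusted p = 0.734). Ndufs1, the largest core subunit, had 0.05 ± 0.11, and Ndufv1, which binds the flavin, had -0.01 ± 0.11. None of the 7 core subunits had an unadjusted p under 0.05, and all 7 intervals lay within 1.5-fold.

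The 29 accessory subunits, which surround and stabilise the core, had changes from -0.19 to 0.30, 20 of them above 0, and 0 passed. Ndufb6, a small membrane-arm subunit, was at 5.23, 5.57, 5.41 and 5.72 on the vehicle arrays and 5.87, 5.73, 5.77 and 5.78 on the furan arrays. The furan arrays were all above the vehicle arrays, though vehicle replicate 6 and furan replicate 42 nearly met. Its change was 0.30 ± 0.12 (adjusted p = 0.171), and a second probe of the gene gave 0.16. Ndufc1, another membrane-arm subunit, was at 6.00, 6.03, 5.77 and 5.95 against 6.29, 6.34, 6.18 and 6.07, again without overlap, with a change of 0.28 ± 0.10 (adjusted p = 0.147). These 2 subunits were the only ones of complex I without overlap, 5.56% of its 36, where 10.8% of all features were higher and 7.35% lower without overlap.

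Ndufb9, a LYR-motif subunit of the membrane arm, had the lowest change of complex I. It stood at 7.96, 8.26, 8.06 and 8.21 on the vehicle arrays and at 7.98, 7.89, 7.97 and 7.90 on the furan arrays. Vehicle replicate 2 fell among the furan arrays and the other 3 vehicle arrays lay above them. The change was -0.19 ± 0.09 (adjusted p = 0.255). It passed the threshold with the brightest 25% of features as the reference and in the authors' deposited values, and its adjusted p ran from 0.0396 to 0.804 over 23 ways of processing. Its change ran from -0.31 to 0.30 over the same set, the positive end being the median shift.

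The complex I assembly factors, chaperones that build the complex and are not part of it, included the member nearest to the threshold. Ndufaf6, a phytoene synthase-like factor needed for complex I assembly, was at 2.04, 2.34, 2.12 and 2.35 on the vehicle arrays and at 2.83, 2.78, 2.69 and 2.51 on the furan arrays. Every furan array lay above every vehicle array. The change was 0.49 ± 0.12 (95% interval 0.22 to 0.76), a 1.41-fold higher level, with an adjusted p of 0.0569 in limma. It passed in 6 of 23 alternatives, with an adjusted p from 0.0218 to 0.490, the upper end being the median shift. It passed in none of the 8 fits run without 1 of the arrays. Within the 4 columns of the slide, each holding 1 vehicle and 1 furan array, it was higher by 0.44, 0.35, 0.80 and 0.39, and with the column as a block its adjusted p was 0.177.

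Ndufaf2, which binds a late assembly intermediate, was at 3.02, 3.22, 2.93 and 3.02 against 3.22, 3.25, 3.26 and 3.39, a change of 0.24 ± 0.09 (adjusted p = 0.180). Vehicle replicate 3 and furan replicate 41 met at 3.22, and the other values did not overlap. Ndufaf7, an arginine methyltransferase, was at 2.63, 2.95, 2.89 and 2.99 against 3.06, 3.04, 3.00 and 3.10, without overlap, and had 0.19 ± 0.10 (adjusted p = 0.290). The factors Ndufaf1, Ndufaf4 and Ndufaf8 had changes of 0.09, 0.11 and 0.10. Ndufaf3 had -0.12 ± 0.14 and Ndufaf5 -0.09 ± 0.18, the latter from 7 arrays because its spot on vehicle replicate 6 was marked as an outlier. In all, 3 of the 8 factors were higher without overlap, 37.5%, where 10.8% of all features were.

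**Figure D5:**
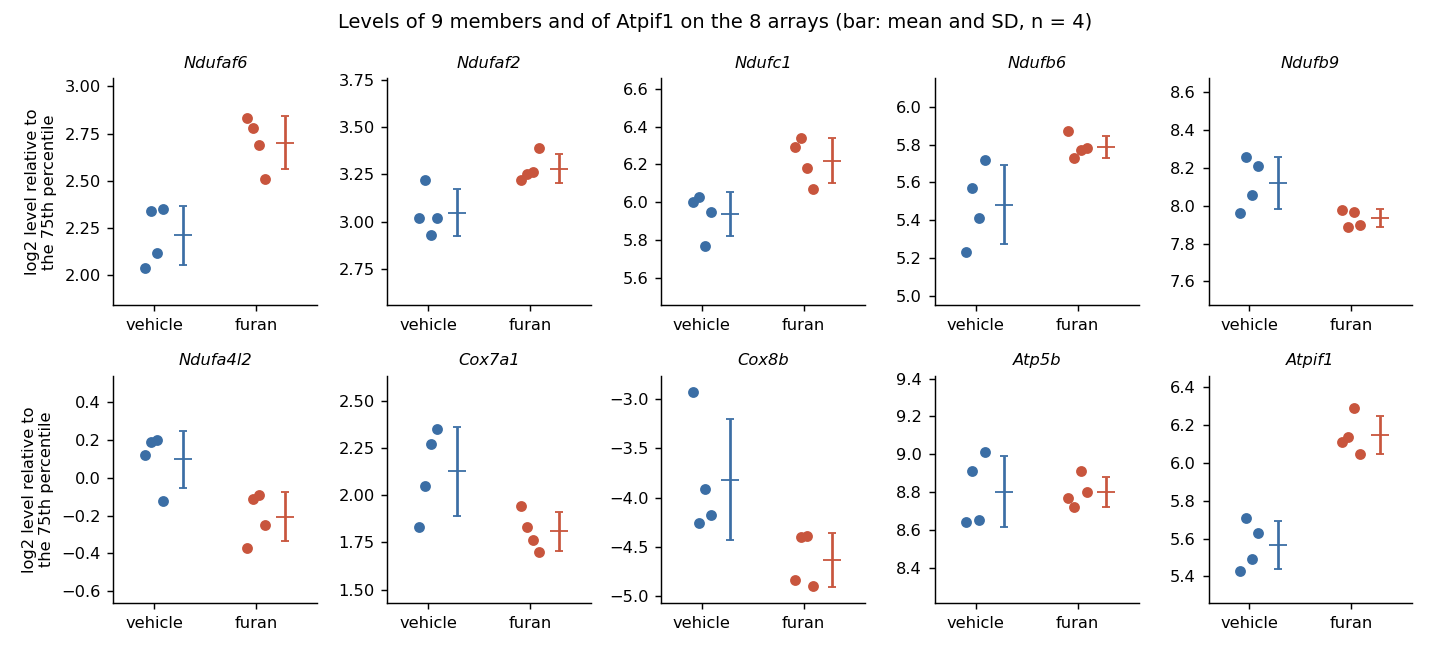
Log2 level relative to the 75th percentile of the array for 9 oxidative phosphorylation genes and Atpif1, the gene of the ATP synthase inhibitor, on each vehicle and furan array (points), with mean and SD (n = 4). The vertical span is 1.2 log2 units in every panel except Cox8b, which spans 2.3. The Atpif1 and Ndufaf6 points separate fully between groups and the Atp5b points overlap.

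Complex II, succinate dehydrogenase, also serves the TCA cycle. Its 4 subunits had changes from 0.03 to 0.13, all above 0. Sdhb, the iron-sulfur subunit, was at 7.72, 8.06, 7.78 and 8.19 on the vehicle arrays and 8.14, 8.00, 8.16 and 7.97 on the furan arrays, so that the furan values lay inside the vehicle range. The change was 0.13 ± 0.13 (limma adjusted p = 0.523). Sdha, the flavoprotein that oxidises succinate, had 0.03 ± 0.09 and the membrane anchors Sdhc and Sdhd had 0.11 ± 0.09 and 0.12 ± 0.08.

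Complex III, the cytochrome bc1 complex, had changes from -0.11 to 0.21 in its 9 genes. Uqcr10, a small subunit, had the highest, at 6.98, 7.22, 7.08 and 7.23 against 7.40, 7.30, 7.44 and 7.23. The groups met at 7.23, vehicle replicate 6 against furan replicate 44, and the change was 0.21 ± 0.09 (adjusted p = 0.218). Its 2 other probes gave 0.15 and 0.22. Uqcrfs1, the Rieske iron-sulfur protein, had 0.19 ± 0.10 and Cyc1, cytochrome c1, 0.16 ± 0.10. Uqcrc1, a core protein, had 0.03 ± 0.18, and Uqcr11, the smallest subunit, had -0.11 ± 0.10. None of the 9 had an unadjusted p under 0.05.

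Complex IV, cytochrome c oxidase, is built from subunits with alternative isoforms for different tissues. The 11 forms that are general or liver-type, Ndufa4 among them, had changes from -0.10 to 0.20 with a median of 0.08, and all 11 intervals lay within 1.5-fold. Cox5a had 0.19 ± 0.09, Ndufa4, a late-added subunit once assigned to complex I, 0.15 ± 0.13, Cox6a1 0.08 ± 0.09 and Cox8a -0.01 ± 0.09. Cox4i1, the general form of subunit IV, was at 8.56, 8.79, 8.60 and 8.72 on the vehicle arrays and 8.57, 8.62, 8.52 and 8.53 on the furan arrays, overlapping, with a change of -0.10 ± 0.08 (adjusted p = 0.440). Moving Ndufa4 to complex I left the median of complex I at 0.08 and gave complex IV 0.04.

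The 5 forms typical of other tissues differed more, with a median of -0.04 and changes from -0.81 to 0.36. Cox8b, the heart and muscle form of subunit VIII that is also high in brown fat, was at -2.93, -4.26, -3.91 and -4.18 on the vehicle arrays and -4.84, -4.40, -4.39 and -4.90 on the furan arrays. Its probe was well above background on 3 vehicle arrays and on 1 furan array, so the other 3 furan values are not well above background. The groups did not overlap, but vehicle replicate 2 stood well above the rest. The change was -0.81 ± 0.30 (limma adjusted p = 0.159), and -0.52 without vehicle replicate 2 (0.132). It was -0.01 after quantile normalization, -0.05 with normexp and -0.05 in the authors' deposited values. Cox7a1, the heart and muscle form of subunit VIIa, was at 1.83, 2.05, 2.27 and 2.35 against 1.94, 1.83, 1.76 and 1.70, overlapping through vehicle replicate 2. Its change was -0.32 ± 0.13 (adjusted p = 0.195), and -0.42 without that array (0.0811). Cox6a2, the muscle form of VIa, had -0.04 ± 0.15. Cox4i2, a lung form of subunit IV, had -0.03 ± 0.08. Cox6b2, a testis form of VIb, had 0.36 ± 0.17 (adjusted p = 0.239).

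Markers of striated muscle and brown fat were read beside these isoforms. Of 10 muscle markers 4 were measured, and the defining genes Ckm, Myh1, Myh4, Mylpf, Actn3 and Myl1 were not. The log2 of the summed muscle signal ran from -0.83 to 0.63 on the vehicle arrays and from -1.20 to -0.57 on the furan arrays. Of 6 brown fat markers 4 were measured, Ucp1 and Plin1 were not, and their summed signal ran from 1.52 to 2.05 against 1.18 to 1.57. Both ranges overlapped between groups. The median changes of the measured markers were -0.64 and -0.96, and 1 of them passed, the fatty acid elongase gene Elovl3, which liver also expresses. The part of these markers in the Cox8b and Cox7a1 values was not tested.

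Complex V, the ATP synthase, had changes from -0.02 to 0.34 among its 17 genes, with 15 above 0 and none at an unadjusted p under 0.05. In the catalytic F1 head, Atp5b, the beta subunit, was at 8.64, 8.91, 8.65 and 9.01 on the vehicle arrays and 8.77, 8.72, 8.91 and 8.80 on the furan arrays. The furan values lay inside the vehicle range, and the change was -0.00 ± 0.11 (95% interval -0.26 to 0.26, limma adjusted p = 0.991). Atp5a1, the alpha subunit, had 0.01 ± 0.10. The 3 genes that encode the same mature c-ring subunit, Atp5g1, Atp5g2 and Atp5g3, had 0.11 ± 0.13, 0.02 ± 0.10 and 0.07 ± 0.11. Atp5e, the epsilon subunit, had the lowest change, -0.02 ± 0.11.

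Atp5pb, the b subunit of the peripheral stalk, had the highest change of complex V. It was at 5.30, 5.71, 5.60 and 6.00 on the vehicle arrays and at 6.07, 5.90, 6.04 and 5.95 on the furan arrays. Vehicle replicate 6 lay within the furan range and the other 3 vehicle arrays below it. The change was 0.34 ± 0.15 (adjusted p = 0.212), with 0.26 from its other probe.

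Of the 2 further proteins, Ndufa4l2, a paralog of Ndufa4 that is induced by hypoxia, was at 0.12, 0.19, 0.20 and -0.12 against -0.37, -0.11, -0.09 and -0.25. The groups overlapped through vehicle replicate 6, and the change was -0.30 ± 0.11 (adjusted p = 0.155). Cox7a2l, which joins complexes III and IV into supercomplexes, had 0.07 ± 0.11.

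Other probes of the same genes gave a check on these values. Of the 92 genes, 23 had several kept probes. In 16 of them all probes had changes of 1 sign, and in 7 the signs differed. Among all 122 kept probes of the 92 genes, 0 passed an adjusted p of 0.05 when probes were tested. The widest disagreement was in Cox7c, a small complex IV subunit named here after its values were seen, whose 3 probes ran from -0.17 to 0.33 around 0.01 for the brightest.

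The gene of the ATP synthase inhibitor IF1, Atpif1, lies outside the name rule and was the clearest difference close to complex V. IF1 blocks the enzyme from running backwards and burning ATP. Atpif1 was at 5.43, 5.71, 5.49 and 5.63 on the vehicle arrays and at 6.11, 6.14, 6.29 and 6.05 on the furan arrays. Every furan array was above every vehicle array, with no value near the other group. It rose by 0.58 ± 0.10 (95% interval 0.35 to 0.81), with a limma adjusted p of 0.0233. It passed in 14 of 23 alternatives. Among the 8 fits without 1 array it passed without vehicle replicate 2 and without vehicle replicate 3, with an adjusted p from 0.0380 to 0.0735 over the 8. With the slide column as a block its adjusted p was 0.133, and it was higher in each of the 4 columns, by 0.51 to 0.67. Whether its change differs from that of the complex V subunits was not tested.

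Genes that build or feed the chain were read from further lists. Of 40 assembly factors outside the name rule, such as those for complexes IV and V, 0 passed in limma, and 11 had an unadjusted p under 0.05, all higher (27.5%, where 12.3% of all features were). Of 19 genes of electron carriers and ubiquinone synthesis, 2 passed (10.5%, where 4.18% of all features did). Pdss1, which makes the ubiquinone side chain, rose by 0.54 ± 0.09 (adjusted p = 0.0250). Coq10a, a ubiquinone-binding chaperone, went from 2.35, 2.75, 2.31 and 2.53 on the vehicle arrays to 1.75, 1.69, 2.06 and 1.76 on the furan arrays, and fell by 0.67 (SE 0.13, adjusted p = 0.0351). The other 17 did not pass. Of 19 TCA cycle genes 0 passed, and 4 had an unadjusted p under 0.05, 21.1% against 23.8% of all features. Of 13 carriers and porins 1 passed (7.69%), Slc25a12, the aspartate-glutamate carrier of the malate-aspartate shuttle, which rose by 0.45 ± 0.10 (adjusted p = 0.0438). Of 23 regulators of mitochondrial biogenesis 1 passed (4.35%, near the 4.18% of all features), Polrmt, the mitochondrial RNA polymerase, by 0.35 ± 0.08 (adjusted p = 0.0496). Of 11 mitochondrial redox genes 1 passed (9.09%), Prdx3, the mitochondrial peroxiredoxin, by 0.52 ± 0.10 (adjusted p = 0.0332). The medians of these 6 lists, in the order given, were 0.13, 0.06, 0.14, 0.14, 0.07 and 0.11.

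The mitochondrial ribosome, which translates the subunits encoded in mitochondrial DNA, was the largest of these lists. Of 77 measured genes, 7 rose and 0 fell in limma (9.09%, where 2.86% of all features rose), with a median change of 0.19. Those 7 were Mrpl19, Mrpl45, Mrpl50, Mrps18b, Mrps22, Mrps6 and Mrps7, with changes from 0.44 for Mrpl19 and Mrpl50 to 0.58 for Mrps18b and adjusted p from 0.0225 to 0.0450. Mrps18b was at 5.19, 5.49, 5.41 and 5.42 on the vehicle arrays and 6.09, 5.87, 5.97 and 5.90 on the furan arrays, without overlap. At an unadjusted p under 0.05, 32 of the 77 were higher (41.6%) and 0 lower, where 12.3% and 11.5% of all features were. Of the 36 complex I subunits 2 were higher (5.56%) and 0 lower, and of the 17 of complex V 0 were either. Without overlap between groups, 33 of the 77 were higher (42.9%) and 1 lower, where 10.8% and 7.35% of all features were. Whether the ribosome genes differ from the respiratory subunits was not tested. Over these lists and Atpif1 13 of 203 genes passed, 6.40% against 4.18% of all features. The count was 0 with a median shift, without the filter on dim probes and with the slide column as a block, 1 without any shift, and 29 with a trended, robust fit. Calls over all features moved as well, from 1041 as reported to 86, 163, 0, 261 and 2000 in these settings, in the order given. The pathway count was 9 without vehicle replicate 2, 3 without vehicle replicate 3 and 0 without any of the other 6 arrays. Over all features, 928 passed without vehicle replicate 2, 401 without vehicle replicate 3 and 195 to 306 without 1 of the others.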

How the data were processed

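RNA of 8 livers was hybridised to the 8 arrays of 1 slide, array design 028005. Per the file headers, the spot intensity of 1 colour was extracted with Agilent Feature Extraction 11.0.1.1, and the processed intensity is background-subtracted and detrended. The authors also deposited a table of log2 values, made by a method not stated in the headers or labels.

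Control spots and spots marked as outliers (128 to 315 per array) were left out, and 0 were saturated. From the log2 processed intensity the array's 75th percentile was subtracted, and replicate spots were averaged. Probes well above background on at least 4 arrays were kept, 33847 of 55681. Symbols came from the RefSeq accession of the probe (assembly GRCm38.p6), for 27235 of 28685 such probes. The array was annotated on another build, so no gene positions are given. Each gene was read from its brightest kept probe. The furan effect was fitted in limma 3.58.1 (lmFit, then eBayes; R 4.3.3) as a 2-sided test with 1 group term and Benjamini-Hochberg adjustment over 24924 features, since the labels name a randomized block design without its blocks.

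Named genes were those past the threshold, the highest and lowest of each class, the 10 members with the smallest unadjusted p and 23 genes fixed by name, plus pathway genes past the threshold. Ndufaf7, Ndufaf1, Ndufaf4, Ndufaf5, Ndufaf8, Sdhc, Sdhd and Cox7a2l were added to complete their classes, after their values were seen. The members and lists were chosen with earlier results of these data known, so no list test was run. As alternatives, arrays were quantile normalized, shifted by their median, by the brightest 25% of features or not at all, or corrected by normexp with an offset of 50 on the median spot signal (the mean signal is not used here). The authors' table, no filter or one on all 8 arrays, outlier spots retained, the mean over a gene's probes, a trended robust fit, weighted arrays, blocks of slide row or slide column, leaving out single arrays and a threshold of 0.01 were tried too. Subtracting the members' median from each array was chosen after seeing the data. The fitting code was tested on simulated data, with 200 of 24924 features changed and the spreads of all features. It called 15 of 67 changes of 1.5-fold, 38 of 67 of 2-fold and 54 of 66 of 4-fold, with 5 false calls. Python 3.11.15, numpy 2.4.6, pandas 2.3.3 and matplotlib 3.10.9 were used.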

Additional observations from a re-analysis of the deposited data

Results flagged for a closer look

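In 4 of the 96 sets of 4 arrays examined for the named genes, 1 array lay far from the other 3, by a 95% critical value, which picks out about 1 in 20 such sets by chance. Cox6a2, the muscle form of a complex IV subunit, was highest on vehicle replicate 2, at -2.10 against -2.33 for the nearest array. Coq10a was highest among the furan arrays on furan replicate 43, at 2.06 against 1.76. Mrpl50 was lowest among the vehicle arrays on vehicle replicate 2, at 3.09 against 3.18. Mrps7 was lowest among the furan arrays on furan replicate 44, at 6.17 against 6.32.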

How the results depend on the processing

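The count of 0 members past the threshold was 2 with the brightest 25% as reference and in the authors' table (Ndufaf6 and Ndufb9). Over all features 1299 and 1669 passed there, against 1041 as reported. The members' count was 1 (Ndufaf6) with the filter on all 8 arrays, the trended robust fit, array weights or the members' median subtracted. In those settings 1740, 2000, 2046 and 938 of all features passed. It was 0 for the members in the other settings, each fit without 1 array included. The count of 13 pathway genes was 0 with a median shift, without the filter, with the slide column as a block and at an adjusted p under 0.01, 1 without a shift, 5 with the members' median subtracted, 29 with the trended robust fit, and 0 to 9 without 1 array. With a median shift the medians of all members, complex I, its assembly factors, II, III, IV and V were 0.56, 0.56, 0.59, 0.60, 0.55, 0.54 and 0.56, and without a shift 0.20, 0.20, 0.23, 0.24, 0.19, 0.18 and 0.20. With the brightest 25% as reference they were -0.01 for all members and 0.03 for complex II. In the authors' table they were -0.03 for all members, -0.03 for complex I, -0.02 for II, -0.05 for III and -0.04 for V. Complex II had 0.05 with array weights. With the members' median subtracted, all members had -0.03, complex I -0.03, II 0.01 and IV -0.05. Without 1 array the medians ran from 0.05 to 0.11 for all members, 0.05 to 0.13 for complex I, 0.07 to 0.19 for its assembly factors, 0.07 to 0.14 for II, 0.05 to 0.13 for III, 0.03 to 0.09 for IV and 0.03 to 0.13 for V. Of 163 such medians, 137 stayed within the spread between arrays. Those 137 include the trended robust fit and the row and column blocks, which act on the standard errors and left every median unchanged. All medians were also unchanged without the filter and with outlier spots retained. Of 1103 values of 48 named genes, 824 kept direction and side of the threshold, 170 lost the call, 8 gained one and 101 uncalled values changed sign. The cause of these differences was not tested. Only the 13 pathway genes called as reported could lose a call. They passed in as few as 4 of 23 alternatives (Polrmt) and at most in 14 (Atpif1). Cox8b was not in the fit with the filter on all 8 arrays. No paired analysis was possible because the vehicle and furan replicates share no number. The slide columns, each with 1 array of either group, were a block of position, and gave 0 calls. Fitting the columns beside the group leaves fewer degrees of freedom for the error, and what position contributes was not tested.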
